A study of Homo sapiens with 21 samples.

Results

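The genes described here are 6 cAMP phosphodiesterases (PDE4A, PDE4B, PDE4C, PDE4D, PDE3B and PDE7A) and 4 cAMP response genes (CREM, NR4A1, NR4A2 and NR4A3), which were 10 of the 58174 gene identifiers in the tables. Identifiers were matched to symbols. With earlier results of these data known, the genes were selected on their family and on the strong rise of PDE4B by 72 h of treatment. All values of the 72 h comparison, and of PDE4B against the control DMSO libraries, are therefore descriptions without a test. RNA was sequenced from OCI-AML5, a human acute myeloid leukaemia cell line, in 7 groups of 3 libraries. Control cells were exposed to DMSO, the solvent, which the labels place at 72 h, or to 500 nM UM171 for 6, 24, 48 or 72 h. The dose follows the labels, and the study's figure legends give a lower one. UM171 is a small molecule that supports the expansion of human haematopoietic stem cells in culture. The other groups carried sgEPCR, a guide RNA directed against PROCR, the gene of the endothelial protein C receptor EPCR, kept in DMSO or in 500 nM UM171 for 24 h. The study describes its sgEPCR cells as 3 independent clones. The labels name no guide for the control cells and do not say which clone or guide a library holds. Genotype, clonal origin and the time in DMSO cannot be told apart between control and sgEPCR cells. Among control cells only the 72 h UM171 group shares its time with DMSO. At 6, 24 and 48 h, and in the steps between those times, UM171 and time in culture cannot be told apart. The comparisons ask how these genes moved with time in UM171 and whether they responded alike in cells without EPCR.

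Cyclic AMP is made from ATP by adenylyl cyclases when receptors coupled to a stimulatory G protein are engaged. It activates protein kinase A (PKA) and EPAC exchange factors, and PKA phosphorylates CREB, which switches on genes through the cAMP response element (CRE). Phosphodiesterases break cAMP down again. The PDE4 enzymes are specific for cAMP and are the main class in many leukocytes, PDE7A is also specific for cAMP, and PDE3B hydrolyses cAMP and is inhibited by cGMP. CREM encodes activators and repressors of the CREB family, among them a short repressor made from an internal promoter that cAMP itself induces. NR4A1, NR4A2 and NR4A3 are orphan nuclear receptors of the immediate early class, which cAMP and inflammatory signals induce within a short time. In myeloid cells PDE4 inhibitors raise cAMP and dampen inflammatory cytokines.

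In GRCh38, PDE4B lay at chr1:65792514-66374579 on the plus strand and spanned 582 kb, and PDE4D lay at chr5:58969038-60522120 on the minus strand and spanned 1553 kb. CREM lay at chr10:35126791-35212958 and NR4A3 at chr9:99821855-99866891, both on the plus strand. RefSeq windows of the 250 bases before each annotated start (build GRCh38.p14) were matched by symbol for 7 of the 10 genes, in 33 windows. They were searched on both strands. The letters searched were those of the palindromic CRE, TGACGTCA. A second search was for its half-site, TGACG, which the CRE contains. The last was for the AP-1 element TGAGTCA, which contains neither. The CRE was present in 1 of the 33 windows, the half-site in 6 and the AP-1 element in 1, against 1.65%, 21.2% and 4.2% of all 35116 windows of the same length. The 6 windows of PDE4B and the 2 of NR4A1 held none of these letters. A window of PDE4A held 5 half-sites, the most of the 33, and is not shown. The sequences shown are the single CRE window, at an internal start of CREM, and the NR4A3 window, which held 4 half-sites. They are shown because CREM rose with UM171 in both genotypes and NR4A3 had the largest rise of the 10 genes in sgEPCR cells. In both, the matched bases are in capitals, and a match describes the letters only.
CREM internal start, chr10:35195652-35195879, plus strand: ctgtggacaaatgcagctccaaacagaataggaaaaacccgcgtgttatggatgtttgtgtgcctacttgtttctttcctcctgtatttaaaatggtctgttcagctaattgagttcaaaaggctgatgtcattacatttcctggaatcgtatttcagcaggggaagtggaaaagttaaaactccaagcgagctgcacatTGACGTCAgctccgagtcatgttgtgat
NR4A3 start, chr9:99821635-99821884, plus strand: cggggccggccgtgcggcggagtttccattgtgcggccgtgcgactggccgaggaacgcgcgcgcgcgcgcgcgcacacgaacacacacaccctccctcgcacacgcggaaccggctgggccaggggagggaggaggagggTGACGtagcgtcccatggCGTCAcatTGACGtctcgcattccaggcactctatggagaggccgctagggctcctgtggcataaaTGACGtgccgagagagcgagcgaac
The CREM window is shown without its last bases, which lie in an exon. The CREM element began 50 bases before the RefSeq start at 35195902 and just inside an exon that starts at 35195850 in another RefSeq transcript. The NR4A3 half-sites began 109, 91, 83 and 25 bases before the RefSeq start at 99821885. The nearest of them lies within the gene span given above, which begins at 99821855. The remaining genes, NR4A2, PDE3B and PDE7A, were not part of this search.

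Libraries held 24.3 to 51.5 M counts, with a median of 33.9 M. A pair of libraries had a high share of mitochondrial counts, sgEPCR DMSO replicate 1 with 35.9% and sgEPCR UM171 replicate 2 with 32.2%. The remaining 19 had 7.73% to 13.5%. PROCR was at 3.37 to 4.3 TPM in control DMSO and 48.5 TPM in each UM171 24 h library, against 2.3 to 4.53 TPM in sgEPCR DMSO and 4.23 to 8.94 TPM in sgEPCR UM171. Of 6 myeloid markers, LYZ (lysozyme) was at 357 to 1814 TPM, SPI1 at 95.7 to 426 TPM and CD33 at 34.6 to 179 TPM. CEBPA was at 6.63 to 92.3 TPM and CSF2RA at 2.64 to 21.3 TPM, and MPO was low, at 0.48 to 9.08 TPM. The sum over the 6 genes ran from 515 to 1195 TPM in sgEPCR DMSO and from 1361 to 1450 TPM in control DMSO. Of 11 markers of other lineages, 8 were under 1 TPM in every library and MS4A1 was at 0 throughout, and the sum of the list was 5.52 to 8.78 TPM in sgEPCR DMSO against 42.8 to 47.2 TPM in control DMSO, through PECAM1 and CD3D. With UM171 at 24 h the second sum was 18.8 to 22.3 TPM in control cells, under DMSO, and 22.1 to 46.8 TPM in sgEPCR cells, above DMSO. The myeloid sum was 1992 to 2246 TPM in control cells at 72 h and 701 to 1556 TPM in sgEPCR cells in UM171. The part of these differences in the results below was not tested. In bulk RNA, fewer expressing cells and less RNA per cell cannot be told apart. Separate cultures are not stated for the control replicates, so p-values there measure only the spread between these libraries, which may be technical.

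In control cells in DMSO, PDE7A was the most abundant phosphodiesterase transcript of the 6, at 43.5 ± 1.52 TPM (SD, n = 3). PDE3B followed at 22.3 ± 1.58 TPM, PDE4A at 12.2 ± 0.368 TPM and PDE4D at 6.15 ± 0.947 TPM, and the libraries of neighbours in this order did not overlap. PDE4B, at 0.55 ± 0.132 TPM, and PDE4C, at 0.24 ± 0.0854 TPM, were the scarcest, with 28 to 38 and 8 to 17 counts per library. TPM is scaled per transcript length, so these levels can be set side by side between genes. All 10 genes passed the filter on low counts in both fits, PDE4C on 13 of 15 and 8 of 12 libraries and NR4A3 on 9 of the 12 libraries of the genotype fit.

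**Figure D1:**
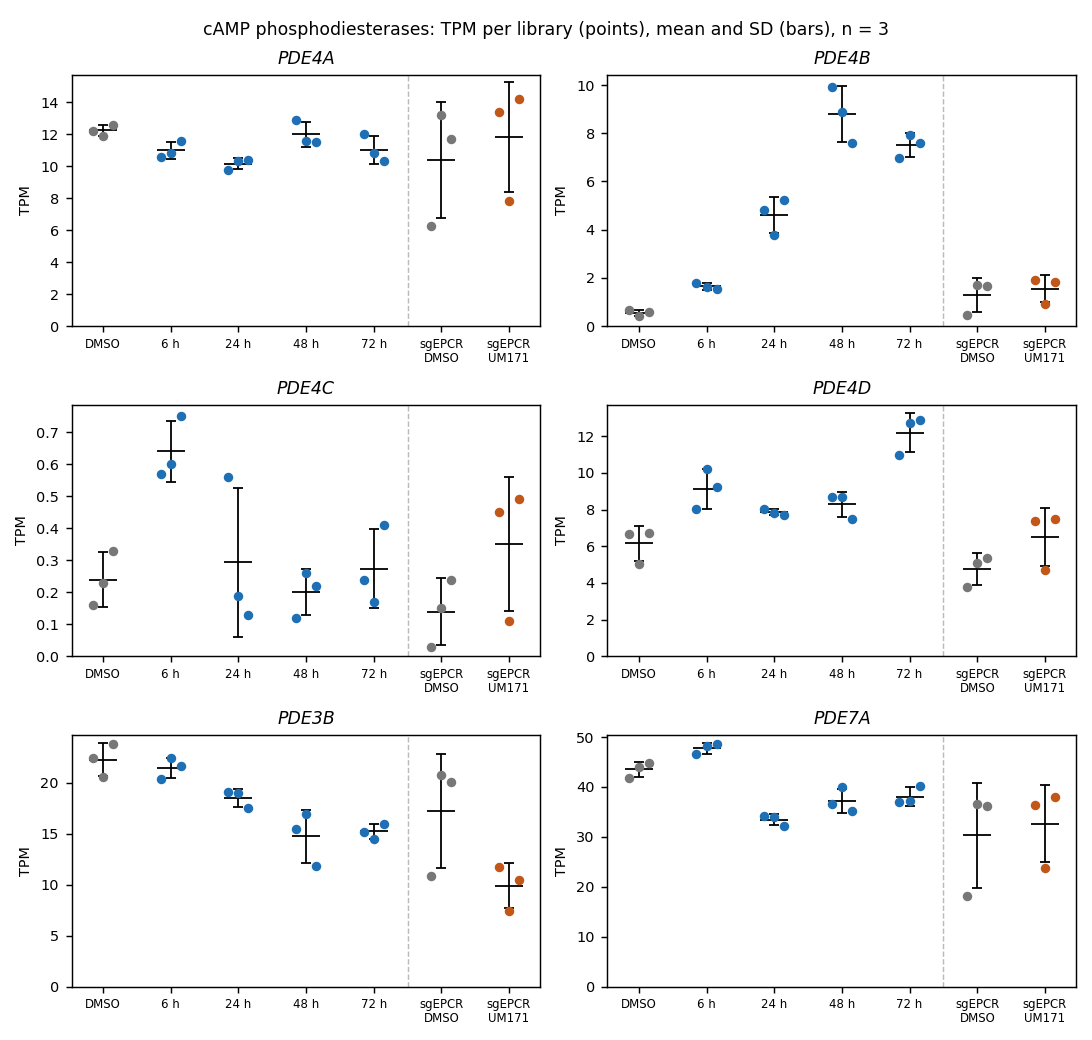
TPM (vertical axes, linear from 0) of the 6 cAMP phosphodiesterases in 7 groups, with 1 point per library and bars for the mean and SD of 3 libraries. Labels 6 h to 72 h are UM171 in control cells. PDE4B went from 0.4 to 0.65 TPM in DMSO to 7.58 to 9.9 TPM at 48 h, and the low points in the sgEPCR groups are the 2 libraries with a high mitochondrial share.

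PDE4B encodes the PDE4 enzyme that limits the cAMP brake on inflammatory genes in monocytes. Its TPM was 0.65, 0.4 and 0.6 in the DMSO libraries, 1.8, 1.64 and 1.52 after 6 h of UM171, and 4.83, 3.77 and 5.24 after 24 h. It reached 9.9, 8.9 and 7.58 TPM at 48 h and was 6.97, 7.93 and 7.61 TPM at 72 h. The groups from DMSO to 48 h did not overlap, and the 48 h and 72 h libraries did. Relative to DMSO, the log2 fold change was 1.81 ± 0.15 (SE) after 6 h and 3.35 ± 0.13 after 24 h of UM171. It was 4.58 ± 0.12 after 48 h and 4.20 ± 0.12 after 72 h, the last being 18.3-fold. These values chose the gene and are given without a test. The steps between UM171 times do not use the DMSO libraries and were tested. They are parts of the rise that chose the gene, so their p-values are not separate support for it. PDE4B rose by 1.54 ± 0.10 on the log2 scale from 6 to 24 h (adjusted p = 1.1e-09, edgeR) and by a further 1.23 ± 0.09 from 24 to 48 h (adjusted p = 9.0e-09). On log2(TPM + 1) with limma the second step was 0.81, under the 2-fold limit.

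The make-up of the PDE4 transcript pool differed between DMSO and UM171. In DMSO PDE4B was 2.85% ± 0.524 (SD, n = 3) of summed PDE4 TPM. With UM171 it was 7.42% ± 1.05 after 6 h and 20.1% ± 2.68 after 24 h, then 30% ± 1.54 after 48 h and 24.2% ± 1.03 after 72 h. PDE4A went from 63.9% ± 3.21 in DMSO to 35.6% ± 3.52 at 72 h, and PDE4D from 32% ± 2.79 to 39.3% ± 2.48, the largest share at that time. The pool itself was 19.1 ± 1.41 TPM in DMSO and 31 ± 0.71 TPM at 72 h, and PDE4A itself was at 12.2 ± 0.368 TPM in DMSO and 11 ± 0.854 TPM at 72 h. PDE4D was 6.15 TPM in DMSO and 12.2 TPM at 72 h on average. In sgEPCR cells PDE4B was 7.18% ± 2.44 of the pool in DMSO and 7.58% ± 0.676 in UM171. Since the rule used PDE4B at 72 h, these shares carry no test.

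**Figure D2:**
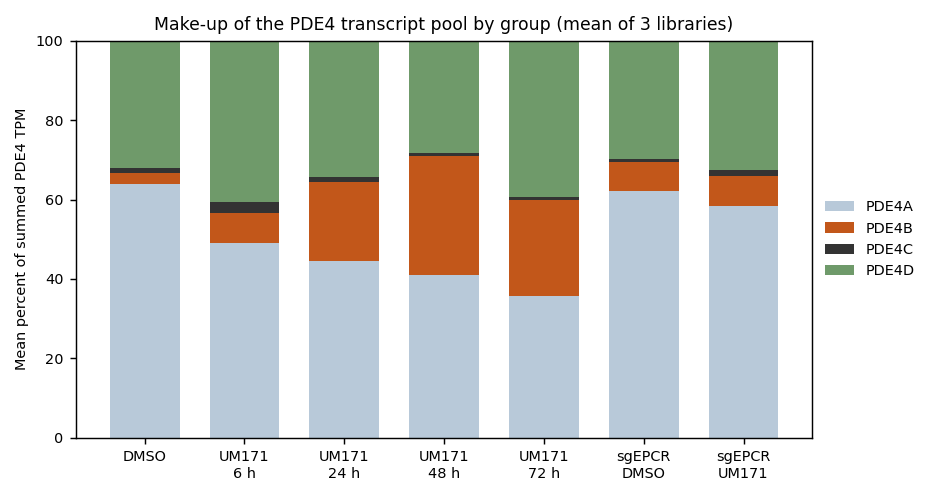
Stacked mean share of PDE4A, PDE4B, PDE4C and PDE4D in summed PDE4 TPM (vertical axis, percent, 0 to 100) in 7 groups of 3 libraries. PDE4B took 2.85% in control DMSO, 30% at 48 h of UM171 and 7.58% in sgEPCR cells in UM171.

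A gene was called when edgeR's adjusted p was under 0.0001 and the change was over 2-fold, the limits of the study's heat maps. PDE4A stayed between 9.77 and 12.9 TPM in all 15 control libraries, and its log2 change from DMSO was -0.31 ± 0.06 at 6 h (adjusted p = 0.0004) and 0.00 ± 0.06 at 48 h (adjusted p = 0.96). PDE4D, the PDE4 gene with the most listed transcripts, was 6.69, 5.06 and 6.71 TPM in DMSO, 8.01, 10.2 and 9.22 at 6 h and 11, 12.7 and 12.9 at 72 h. Every 6 h and 72 h library was above the DMSO libraries. PDE4D was 0.38 ± 0.06 higher on the log2 scale at 6 h (adjusted p = 2.4e-05) and 0.51 ± 0.06 higher at 48 h (adjusted p = 3.5e-07), both under 2-fold. At 72 h the difference was 1.07 ± 0.06, with no test. PDE4C, the least abundant of the family, had its highest counts at 6 h, with 44, 33 and 34 against 17, 8 and 16 in DMSO. Its 6 h value of 1.43 ± 0.30 did not pass the limit (adjusted p = 0.00053). PDE4C fell by 1.80 on the log2 scale from 6 to 24 h, with an SE of 0.31 (adjusted p = 6.0e-05), on 8 to 44 counts per library. That call was lost without any 1 of 8 libraries, namely DMSO replicate 3, UM171 24 h replicate 2 or 3, UM171 48 h replicate 1, any of the UM171 6 h replicates or UM171 72 h replicate 1. Without UM171 24 h replicate 2 the change was -1.49 (adjusted p = 0.00082).

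PDE3B and PDE7A had the more abundant transcripts. PDE3B was lower late in the time course, and PDE7A was lowest at 24 h, with a mean of 33.4 TPM against 38.1 TPM at 72 h. PDE3B, which insulin and cytokine signals activate through its phosphorylation, was 22.4, 20.6 and 23.8 TPM in DMSO, 15.5, 16.9 and 11.8 at 48 h and 15.2, 14.5 and 16 at 72 h. All late libraries lay under all DMSO libraries. The log2 change was -0.55 ± 0.06 at 48 h (adjusted p = 4.0e-07), under 2-fold, and -0.63 ± 0.06 at 72 h, without a test. PDE7A was -0.37 ± 0.04 at 24 h (adjusted p = 3.7e-07) and -0.20 ± 0.04 at 48 h (adjusted p = 0.00035). Its TPM fell in a narrow span over the control cells, from 32.2 to 48.6.

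CREM was the most abundant of the cAMP response genes. It was at 14.5, 16.4 and 13.3 TPM in the DMSO libraries, 20.7, 20.6 and 20.2 TPM after 6 h of UM171 and 28, 26.9 and 29.6 TPM after 24 h. It was then 49.1, 51.9 and 34 TPM after 48 h and 34.8, 34.6 and 39.2 TPM after 72 h. The 4 groups up to 48 h did not overlap, and UM171 48 h replicate 3 was the low library at its time. The log2 change from DMSO was 0.27 ± 0.09 at 6 h (adjusted p = 0.015), 0.78 ± 0.09 at 24 h (adjusted p = 3.3e-07) and 1.64 ± 0.08 at 48 h (adjusted p = 1.3e-11), and it passed the fold limit only at 48 h among the tested times. At 72 h it was 1.29 ± 0.08, without a test.

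NR4A1 libraries in DMSO had 1.83, 1.85 and 2.13 TPM. With UM171 NR4A1 was at 2.45, 3.08 and 4.2 TPM after 24 h, 8.4, 7.1 and 7.15 TPM after 48 h and 6.77, 7 and 6.16 TPM after 72 h. NR4A2 was lower, with 1.11, 0.96 and 1.35 TPM in DMSO libraries, 1.55, 1.33 and 1.63 TPM after 24 h, 3.62, 4.62 and 3.33 TPM after 48 h, and 2.85, 2.62 and 3.07 TPM after 72 h. For both genes the 48 h and 72 h libraries lay above all DMSO and 24 h libraries. At 6 h, the shortest exposure and the one nearest to an immediate early response, the log2 changes were 0.30 ± 0.14 for NR4A1 (adjusted p = 0.068) and 0.47 ± 0.13 for NR4A2 (adjusted p = 0.0036). At 24 h they were 0.80 ± 0.13 (adjusted p = 3.6e-05) and 0.81 ± 0.12 (adjusted p = 1.4e-05), still under 2-fold. With limma on log2(TPM + 1) the 24 h values were 0.51 for NR4A1 (adjusted p = 0.0044) and 0.23 for NR4A2 (adjusted p = 0.11). At 48 h NR4A1 was above the 72 h DMSO libraries by 2.05 ± 0.12 (adjusted p = 1.2e-10). NR4A2 was above them by 2.00 ± 0.11 (adjusted p = 5.9e-11), about 4-fold each. The step from 24 to 48 h alone was a rise of 1.25 ± 0.11 for NR4A1 (adjusted p = 1.8e-07) and 1.20 ± 0.11 for NR4A2 (adjusted p = 1.3e-07). NR4A3 was the scarcest, with 12 to 24 counts in DMSO and 24 to 52 at 48 h. Its 48 h value was 1.27 ± 0.32 (adjusted p = 0.0017) and was not called, but without a filter on low counts it was (1.26, adjusted p = 6.0e-05).

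**Figure D3:**
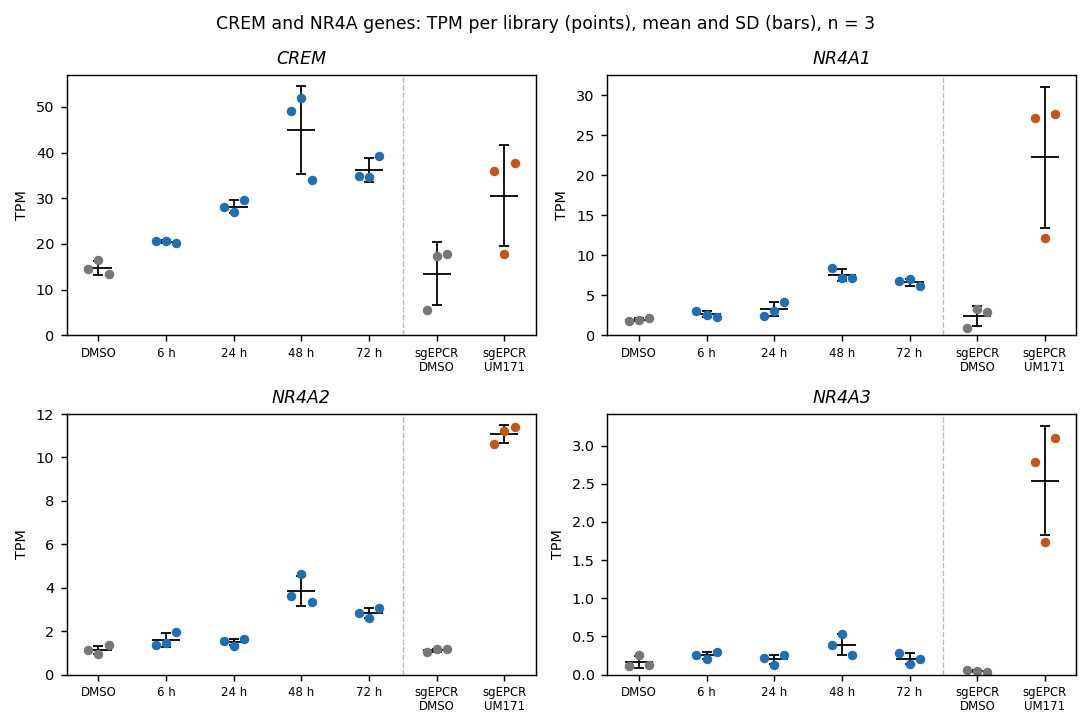
TPM (vertical axes, linear from 0) of CREM, NR4A1, NR4A2 and NR4A3 in 7 groups, with 1 point per library and bars for the mean and SD of 3 libraries. In control cells the highest levels were at 48 h, and NR4A1, NR4A2 and NR4A3 were higher still in sgEPCR cells in UM171, at 12.1 to 27.6, 10.6 to 11.4 and 1.74 to 3.1 TPM.

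Counted over the 9 genes that could be tested against DMSO, 0 were called at 6 h and 0 at 24 h, where 6.78% and 9.03% of all 16575 tested genes were called as increased and 0.247% and 4.7% as decreased. At an adjusted p under 0.05 with no minimum fold, edgeR gave 6 of 9 at 6 h and 7 of 9 at 24 h. The share of all genes at that looser limit was not counted, so these counts cannot be set against all genes. At 48 h the 3 genes CREM, NR4A1 and NR4A2 were called as increased and 0 as decreased, against 11.7% and 4.67% of all genes. The median log2 change of the 9 genes was 0.30, 0.17 and 0.51 at the 3 times, and that of all genes was between -0.01 and 0.02. From 6 to 24 h, 1 of 10 was called as increased (PDE4B) and 1 as decreased (PDE4C), against 3.61% and 6.43%. From 24 to 48 h, 3 of 10 were called as increased (PDE4B, NR4A1 and NR4A2) and 0 as decreased, against 2.51% and 0.338%. In one fit of all 21 libraries that count was 1, PDE4B. Because PDE4B was chosen on its rise, its calls in these steps follow in part from the choice. The comparisons with DMSO share their control libraries, and those between times share the 24 h libraries. Those at 6, 24 and 48 h also differ from DMSO in time, and the part of that was not tested.

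The genotype comparison used a fit of its own, over 12 libraries and 15901 genes. Levels for it are given as log2 CPM, counts scaled to the library total with TMM factors. In TPM, 9 of the 10 genes had the lowest value of their group in each of the 2 libraries with a high mitochondrial share. PDE4B was -0.26, -0.27 and -0.03 in control DMSO and 3.19, 2.98 and 3.15 in control UM171 at 24 h. In sgEPCR cells it was 1.26, 1.88 and 1.91 in DMSO and 1.79, 1.81 and 1.78 in UM171. The sgEPCR libraries thus all lay between the control groups, and sgEPCR DMSO replicate 1 was the low one. Within sgEPCR cells the change with UM171 was 0.06 ± 0.17 (adjusted p = 0.98), and it was -0.11 without the 2 libraries with a high mitochondrial share. Between genotypes in UM171, PDE4B was called as lower in sgEPCR cells, by a log2 change of -1.33 ± 0.16 (adjusted p = 9.2e-05), just inside the limit. Leaving out any single library of the 12 other than sgEPCR DMSO replicate 1 ended that call, with changes between -1.40 and -1.29. In DMSO, PDE4B was 1.97 ± 0.18 higher in sgEPCR cells, and its response was 3.30 lower on the log2 scale (SE 0.24). Both values use the control DMSO libraries and have no test. The lower level in UM171 is set against control 24 h libraries, which are part of the rise that chose PDE4B. Its p-value is therefore not separate support.

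**Figure D4:**
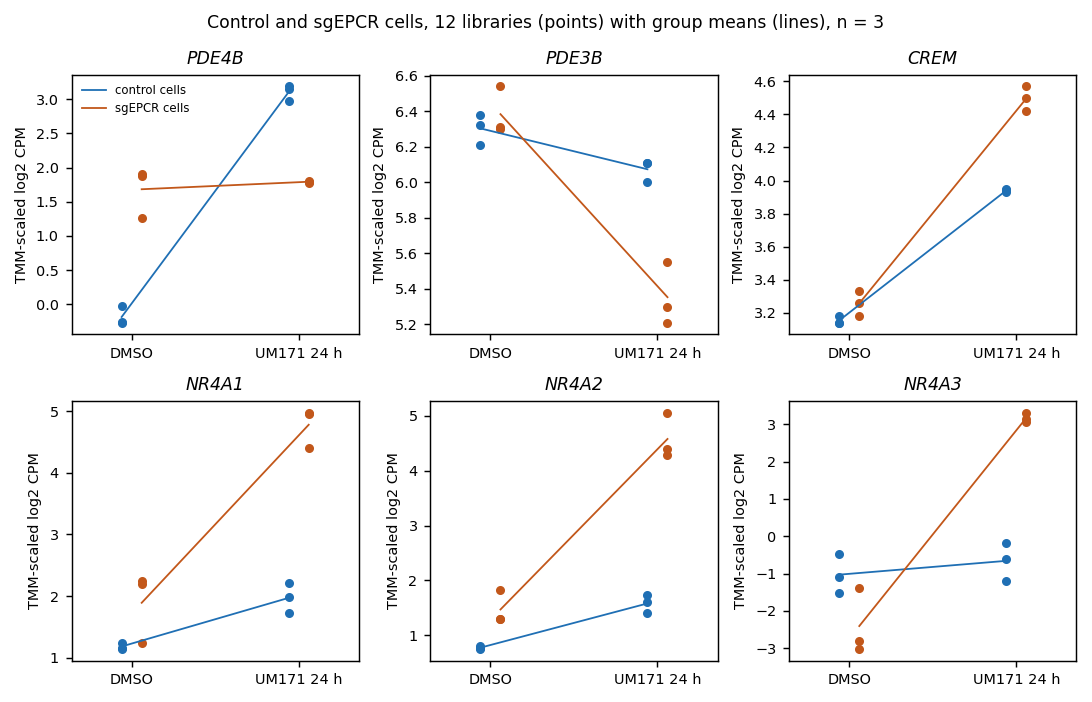
TMM-scaled log2 CPM (vertical axes, each with its own range) of 6 genes in DMSO and at 24 h of UM171, with 1 point per library and lines joining the means of 3 libraries, for control and sgEPCR cells. PDE4B went from -0.26, -0.27 and -0.03 to 3.19, 2.98 and 3.15 in control cells and stayed at 1.26 to 1.91 in sgEPCR cells, while NR4A3 stayed at or under -0.17 in control cells and reached 3.05 to 3.31 in sgEPCR cells.

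The NR4A genes rose in sgEPCR cells. NR4A1 was 1.23, 2.25 and 2.19 log2 CPM in sgEPCR DMSO and 4.98, 4.41 and 4.96 in sgEPCR UM171, a rise of 2.84 ± 0.25 (adjusted p = 5.3e-06) or 7.17-fold. NR4A2 was 1.83, 1.29 and 1.29 log2 CPM and then 4.29, 5.06 and 4.39, a rise of 3.17 ± 0.23 (adjusted p = 1.1e-06) or 9.02-fold. Neither gene overlapped between the groups. NR4A3 had 6, 3 and 3 counts in sgEPCR DMSO and 317, 236 and 405 in sgEPCR UM171. Per total count the ratio of the sums, 958 against 12, was 78, with an exact 95% interval of 44.5 to 152 that covers counting error only. The fitted rise of NR4A3 was 6.05 ± 0.47 on the log2 scale (adjusted p = 1.8e-06), against a group at 3 to 6 counts, and 6.71 without the 2 libraries with a high mitochondrial share. In control cells at 24 h NR4A3 had only 29, 21 and 22 counts, against 15, 24 and 12 in DMSO. Summed NR4A TPM was 3.58 ± 1.33 in sgEPCR DMSO and 35.8 ± 9.44 in sgEPCR UM171, above the 11.8 ± 0.921 TPM of control cells at 48 h, their highest time.

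Set against control cells in UM171 at 24 h, sgEPCR cells had more NR4A3 (log2 change 3.94 ± 0.38, adjusted p = 1.8e-05), NR4A2 (3.06 ± 0.22, adjusted p = 3.2e-06) and NR4A1 (2.85 ± 0.25, adjusted p = 1.1e-05). The call of NR4A3 was lost without any 1 of the UM171 24 h libraries or without sgEPCR UM171 replicate 1 or 3 (3.65 to 4.17), and that of NR4A1 without UM171 24 h replicate 1 or 2 (2.72 and 2.84). In DMSO the same genes gave -1.76 ± 0.54 for NR4A3 (adjusted p = 0.029), 0.71 ± 0.23 for NR4A2 (adjusted p = 0.036) and 0.82 ± 0.26 for NR4A1 (adjusted p = 0.031). Without the 2 libraries with a high mitochondrial share NR4A1 was called there, at 1.05 (adjusted p = 5.6e-06). With limma on log2(TPM + 1) NR4A2 was -0.01 in DMSO (adjusted p = 0.98). The difference between the responses of the genotypes was itself tested. It was 5.70 ± 0.64 for NR4A3 (adjusted p = 4.8e-05), which was called, 2.35 ± 0.32 for NR4A2 (adjusted p = 0.00016) and 2.03 ± 0.35 for NR4A1 (adjusted p = 0.00088), which missed the limit. With limma the NR4A3 difference was 1.69 on log2(TPM + 1) (adjusted p = 0.00033) and 3.95 on log2(TPM + 0.1) (adjusted p = 0.00041), neither called. On the first scale NR4A2 was called instead, at 2.28 (adjusted p = 9.1e-05). Leaving out single libraries moved NR4A3 between 5.25 and 6.43 and ended its call in 10 of 12 cases, all but sgEPCR DMSO replicate 1 and sgEPCR UM171 replicate 2. Without both of these, the libraries with a high mitochondrial share, all 3 were called, at 6.41 for NR4A3 (adjusted p = 1.5e-07), 2.28 for NR4A2 (adjusted p = 1.4e-08) and 1.99 for NR4A1 (adjusted p = 5.5e-08).

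CREM and PDE3B also responded in sgEPCR cells. CREM was 3.18, 3.26 and 3.33 log2 CPM in sgEPCR DMSO and 4.42, 4.57 and 4.50 in sgEPCR UM171, a rise of 1.24 ± 0.08 (adjusted p = 3.7e-07), beside 3.94, 3.93 and 3.95 in control cells in UM171. The difference between the CREM responses was 0.45 ± 0.11 (adjusted p = 0.0058). PDE3B was 6.54, 6.31 and 6.30 log2 CPM and then 5.30, 5.55 and 5.21, so it fell by 1.03 with an SE of 0.10 (adjusted p = 1.3e-05), just over 2-fold. That call was lost without sgEPCR DMSO replicate 1 or sgEPCR UM171 replicate 3 (-0.96 each), or without sgEPCR UM171 replicate 1 (adjusted p = 0.00012). PDE4D was 0.58 ± 0.13 higher with UM171 (adjusted p = 0.0028) and PDE4C 1.60 ± 0.42 higher on 2 to 40 counts (adjusted p = 0.0081), and neither was called. PDE4A at -0.10 ± 0.11 and PDE7A at -0.13 ± 0.09 were within 2 SE of 0 and changed sign with total count scaling (0.07 and 0.03).

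In sgEPCR cells UM171 thus gave 4 of 10 genes called as increased (CREM, NR4A1, NR4A2 and NR4A3) and 1 as decreased (PDE3B), against 6.99% and 3.33% of all genes. The median log2 change of the 10 was 0.91, and that of all genes -0.01. With total count scaling, or with limma on log2(TPM + 1), 2 of these calls were left, NR4A2 and NR4A3. In edgeR with a block for replicate number 0 were left, with NR4A2 at 3.14 (adjusted p = 0.00041) and NR4A3 at 6.03 (adjusted p = 0.00078). Between genotypes in DMSO 0 of 9 were called, against 1.43% of all genes as increased and 1.41% as decreased. With an adjusted p under 0.05 alone edgeR gave 3 of 9, a limit at which the share of all genes was not counted. Under UM171, 3 of 10 were called as increased and 1 as decreased, against 2.67% and 1.79%. The decreased gene was PDE4B, which was chosen on its rise in control cells. Total count scaling left 2 calls, NR4A2 and NR4A3. For the difference between responses 1 of 9 was called as increased and 0 as decreased, against 3.6% and 4.17%. At an adjusted p under 0.05 alone the count was 6 of 9, also without a share of all genes. The replicate block left 0 calls for this difference and 0 between genotypes in UM171.

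The tables also give each gene's mean transcript length, which RSEM weights by the isoforms it estimates and which the choice of genes did not use. PDE4B was at 3071, 3377 and 2797 bases at 24 h and 3411, 3562 and 3710 bases at 48 h, on 234 to 1035 counts. In DMSO it was 1919, 3161 and 2555 bases on 28 to 38 counts, too few to weight isoforms well. PDE4D was 3265, 4384 and 4380 bases in sgEPCR DMSO and 5027, 5548 and 5102 bases in sgEPCR UM171, without overlap. In control cells PDE4D was 4225 to 5265 bases in DMSO and 5155 to 5446 bases at 72 h. At 24 h of UM171, the time of the sgEPCR groups, it was 4197, 4352 and 4266 bases in control cells. NR4A2 in control cells was 2342, 2865 and 2008 bases in DMSO, on 59 to 67 counts, and 3144, 3166 and 3283 bases at 24 h. PDE4A was 3585 and 3343 bases in the 2 libraries with a high mitochondrial share and 4346 to 4732 bases elsewhere. These values are descriptions, since 3 libraries a group cannot reach an exact two-sided permutation p under 0.1.

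Other genes of the cAMP pathway were counted over 6 lists of 99 genes. The lists were chosen with earlier results of these data known. Their counts, here and in sgEPCR cells below, are therefore descriptions and no test of the pathway against all genes. Of 75 tested in the time course, 16 were called as increased and 2 as decreased at 6 h, 19 and 6 at 24 h, and 21 and 5 at 48 h, against 6.78% and 0.247%, 9.03% and 4.7%, and 11.7% and 4.67% of all genes. Among 9 receptors that raise cAMP, 3 rose and 1 fell at 48 h. ADORA2A, a stimulatory adenosine receptor, rose by 3.13 ± 0.18 on the log2 scale (adjusted p = 6.0e-11), from 1.53 to 12.5 TPM, and PTGER2, the prostaglandin E2 receptor EP2, fell by 2.33 with an SE of 0.07 (adjusted p = 1.0e-14), from 35.5 to 7.15 TPM. The median of the 9 was 0.49. Of 9 G protein and adenylyl cyclase genes 2 rose at 48 h and 0 fell, with GNAI1, an inhibitory G protein subunit, at 1.67 ± 0.06 (adjusted p = 7.6e-14) and GNAL, a stimulatory one, at 1.66 ± 0.11 (adjusted p = 6.2e-10).

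Of 10 other phosphodiesterases, 4 rose and 0 fell at 6 h, 24 h and 48 h alike. PDE5A, a cGMP enzyme, was up by 4.40 ± 0.29 at 6 h (adjusted p = 1.7e-09), but from a mean of 0.173 to 1.63 TPM, and PDE6A, the photoreceptor cGMP enzyme, by 3.45 ± 0.20 at 48 h (adjusted p = 6.3e-11), from 0.11 to 1.14 TPM. Of 24 genes of PKA, its anchors and EPAC, 8 rose and 2 fell at 48 h, with a median of 0.30. RAPGEF4, which encodes an EPAC protein, rose by 3.61 ± 0.44 (adjusted p = 1.2e-06) and the anchor AKAP12 by 3.42 ± 0.27 (adjusted p = 4.2e-09). Both had means under 1 TPM in DMSO and at 48 h (from 0.05 to 0.557 and from 0.05 to 0.313 TPM). RAPGEF4 had its highest mean at 24 h, at 1.08 TPM. The anchors AKAP1 and AKAP8 fell by 1.18 and by 1.10. In the list of 10 CREB factors and coactivators 0 genes rose and 1 fell at 48 h. This was the kinase gene SIK1, which fell by 1.60 with an SE of 0.23 (adjusted p = 6.3e-06). SIK1 is itself a CREB target but was counted in this list only. Of 13 other CREB target genes 4 rose and 1 fell at 48 h, with AREG, an EGF receptor ligand, up by 7.24 ± 0.25 (adjusted p = 1.1e-13) from a mean of 0.0733 TPM with 1 DMSO library at 0, EGR1, an immediate early factor, up by 4.61 ± 0.15 (adjusted p = 4.6e-14) and THBD, which encodes thrombomodulin, down by a log2 change of -1.32 ± 0.06 (adjusted p = 4.9e-12).

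In sgEPCR cells 73 of the 99 genes were tested, and UM171 gave 16 called as increased and 4 as decreased, against 6.99% and 3.33% of all genes. Other CREB target genes were the list with the most calls for its size, 7 of 13 up and 1 down with a median of 1.03. INHBA, the activin A subunit, led at 5.24 ± 0.21 (adjusted p = 2.2e-08), with AREG at 5.10 ± 0.63 (adjusted p = 5.7e-05). Both started low, INHBA going from a mean of 0.133 to 5.18 TPM and AREG from 0.04 to 1.41 TPM. PER2, a circadian repressor, fell by 1.23 on the log2 scale (adjusted p = 2.3e-07). Of the 9 receptors 2 rose and 1 fell. PTGER4, the prostaglandin receptor EP4, rose by 1.23 ± 0.15 (adjusted p = 4.6e-05), and PTGER2 had a log2 change of -1.88 ± 0.13 (adjusted p = 1.0e-06). PDE7B, which like PDE7A encodes a cAMP enzyme, fell by 1.68 in sgEPCR cells (adjusted p = 3.0e-07) and its response differed between genotypes by -2.03 ± 0.14 (adjusted p = 1.9e-06). For the difference between responses 9 of the 73 were called as increased and 4 as decreased, against 3.6% and 4.17% of all genes. INHBA at 6.11 ± 0.30 (adjusted p = 2.6e-07), FOSB, an AP-1 subunit, at 4.63 ± 0.29 (adjusted p = 9.5e-07) and ADCY4, an adenylyl cyclase, at 3.15 ± 0.24 (adjusted p = 3.5e-06) were among those increased. PRKAR2B, a PKA regulatory subunit, at -2.35 ± 0.25 (adjusted p = 3.7e-05) was among those decreased. FOSB in sgEPCR cells had a mean of 0.307 TPM in DMSO and 8.33 TPM in UM171.

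Across the 21 libraries, the genes of 13530 with a mean of at least 1 TPM whose log2(TPM + 1) ran closest to each gene were listed by Pearson r. For PDE4B they were BCAT1 (0.958), EIF4G3 (0.957) and LNP1 (0.956). For CREM they were UXS1 (0.973), ADGRE2 (0.966) and GK (0.966). NR4A1 ran closest to TUBA1A (0.983), RGCC (0.959) and UBE2H (0.955), and NR4A2 to MIR222HG (0.960), INHBA (0.954) and SPINK1 (0.952). NR4A3 ran closest to FOSB (0.969), CCL4L2 (0.967) and CCL4 (0.958). Among the 10 genes themselves, NR4A1 and NR4A2 had r = 0.94, NR4A2 and NR4A3 0.91, PDE4B and CREM 0.83, PDE4B and NR4A3 -0.08, and PDE3B and NR4A2 -0.77. These are descriptions over libraries that share groups, depth and the mitochondrial share, and they carry no p.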

How the data were processed

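Poly(A) RNA from 21 OCI-AML5 libraries in 7 groups of 3 was analysed. Per the labels, libraries were stranded, and the submitters' processing notes name CASAVA 1.8.2, Trimmomatic 0.35, STAR 2.5.1b, RSEM 1.2.28 and GRCh38. The paper's methods name kallisto and sleuth, so the tables used here come from another pipeline. The authors deposited raw expected counts from RSEM, which splits a read that fits several genes among them, and TPM, which divide by effective length and are scaled to the same total in each library. A posterior SD in the tables was 0 for all 10 genes in every library, so none had reads shared with another gene. The 45 Y pseudoautosomal entries of 58219 were added to their X counterparts, and 41805 of the 58174 identifiers matched a symbol. No table of protein sequences was used.

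Expected counts were rounded and tested with edgeR 4.0.16 in R 4.3.3 (filterByExpr, TMM scaling, glmQLFit and glmQLFTest), with Benjamini-Hochberg adjustment over all tested genes. The 15 control-cell libraries formed one fit and the 12 DMSO and 24 h libraries of both genotypes another. Calls, two-sided, required more than a 2-fold change and an adjusted p below 0.0001. The SE is the size of the log2 change over the square root of F. Limma 3.58.1 on log2(TPM + 1) or log2(TPM + 0.1), DESeq2 1.42.0, total count scaling, other count filters, a replicate block, one fit of 21 libraries, and fits without single libraries or without the 2 libraries over 20% mitochondrial counts were alternatives. The scripts were tested on simulated data. Counting error alone sets a floor of 3 counts per library. Replicate numbers did not pair the libraries of the time course, and for the sgEPCR libraries this could not be decided.

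The 10 genes, the pathway lists and the markers were chosen with earlier results of these data known. All 10 were named, and from each pathway list up to 2 called genes with the largest rise and 2 with the largest fall per comparison could be named. A receptor gene among these is not reported here. For PDE4B, CREM and the NR4A genes the 3 nearest genes by Pearson r were named. Figures used Python 3.11.15 and matplotlib 3.10.9.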

Additional observations from a re-analysis of the deposited data

Results flagged for a closer look

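The response of NR4A3 to 24 h of UM171 differed between genotypes by 5.70 ± 0.64 on the log2 scale (sgEPCR minus control, adjusted p = 4.8e-05 by edgeR on an interaction term), from 0.35 ± 0.41 in control cells and 6.05 ± 0.47 in sgEPCR cells in the fit of 12 libraries. All 3 sgEPCR UM171 libraries held 236 to 405 counts, and the other 9 libraries of that fit held 3 to 29. The control DMSO and sgEPCR DMSO libraries were labelled with different times, and the part of that in the difference was not tested. No group reached the size at which single libraries could be screened for standing apart.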

How the results depend on the processing

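Of 1866 values of the 10 genes under alternatives, 1709 kept their direction and their side of the threshold. The share of all genes at an adjusted p under 0.05 alone was not counted. Counts of called genes moved as follows. With no minimum fold at an adjusted p under 0.05 there were 6 calls at 6 h, 7 at 24 h and 7 at 48 h against DMSO, 7 from 6 to 24 h, 9 from 24 to 48 h, 3 between genotypes in DMSO, 7 in UM171 and 6 for the difference between responses. No filter gave 1 call at 6 h, 4 at 48 h, with NR4A3 added, and 2 for the difference. At least 10 counts in every library gave 1 call from 6 to 24 h, 3 for UM171 in sgEPCR cells and 0 for the difference. PDE4C from 6 to 24 h and NR4A3 in the other 2 were no longer tested, and PDE3B was -0.96 in sgEPCR cells, under 2-fold. Limma on log2(TPM + 0.1) gave 1 from 6 to 24 h, 0 from 24 to 48 h, 2 for UM171 in sgEPCR cells, 1 between genotypes in UM171 and 0 for the difference, and on log2(TPM + 1) 1, 1, 2 and 2 in the first 4. One fit of 21 libraries gave 1 from 6 to 24 h, 1 from 24 to 48 h and 3 for the difference. Total count scaling gave 2 for UM171 in sgEPCR cells, 2 between genotypes in UM171 and 2 for the difference, DESeq2 gave 3 for the difference, and leaving out the 2 libraries with a high mitochondrial share gave 3 for the difference and 1 between genotypes in DMSO. Leaving out single libraries gave 1 to 2 calls from 6 to 24 h, 1 to 4 between genotypes in UM171 and 0 to 2 for the difference. Why these counts moved was otherwise not tested.

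Same-numbered libraries did not deviate together in the time course (r from -0.08 to 0.08 over 30 pairs), so the numbers do not pair them there. In the genotype fit they did so in 1 of 3 pairs (-0.61 to 0.45). The 2 libraries with a high mitochondrial share, which have different numbers, deviated together (r = 0.69). With 3 pairs that hold these libraries, pairing of sgEPCR libraries by clone cannot be decided. With the replicate block 0 genes were called for UM171 in sgEPCR cells, 0 between genotypes in UM171 and 0 for the difference, and NR4A3 was 5.67 for the difference (adjusted p = 0.0044).

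Signs changed mostly for small values. The largest were 0.71 for NR4A2 between genotypes in DMSO and 0.57 for PDE4C from 24 to 48 h. With limma on log2(TPM + 1) and log2(TPM + 0.1) in turn, PDE7A was 0.13 and 0.14 at 6 h, PDE4C 0.05 and 0.08 at 24 h, PDE4A -0.02 and -0.03 and PDE4C -0.05 and -0.18 at 48 h, PDE4A -0.10 and -0.11 and NR4A2 -0.04 and -0.05 from 6 to 24 h, and PDE4C -0.10 and -0.27 from 24 to 48 h. With UM171 in sgEPCR cells PDE4A was 0.19 and 0.21 and PDE7A 0.14 and 0.15. Between genotypes in DMSO PDE4A was -0.27 and -0.30, PDE3B -0.40 and -0.42, CREM -0.26 and -0.30 and NR4A2 -0.01 and -0.01, and in UM171 PDE4D was -0.26 and -0.30 and PDE7A -0.06 and -0.06. Total count scaling gave PDE7A 0.13 at 6 h, PDE4A -0.11 from 6 to 24 h, PDE4A 0.07 and PDE7A 0.03 with UM171 in sgEPCR cells, and PDE4A -0.13, PDE3B -0.19 and CREM -0.14 between genotypes in DMSO. That scaling moved the median log2 change of all genes to 0.20 at 6 h, -0.19 from 6 to 24 h, 0.16 with UM171 in sgEPCR cells, and -0.25 and -0.13 between genotypes in DMSO and UM171. DESeq2 gave PDE4A -0.00 at 48 h and PDE3B 0.01 from 6 to 24 h, and no filter gave PDE4A -0.00 at 48 h and PDE3B 0.06 from 6 to 24 h. One fit of 21 libraries gave PDE3B 0.00 from 6 to 24 h. Without the 2 libraries with a high mitochondrial share PDE4B was -0.11 with UM171 in sgEPCR cells and PDE3B -0.01 between genotypes in DMSO. Without single libraries, PDE4A ran from -0.03 to 0.06 and PDE4C from -0.05 to 0.42 at 48 h, PDE3B from -0.01 to 0.05 and NR4A3 from -0.41 to 0.11 from 6 to 24 h, and PDE4B from -0.11 to 0.17 with UM171 in sgEPCR cells. Low counts limited PDE4C, NR4A3 and PDE4B in control DMSO.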
